A study of Arabidopsis thaliana with 134 samples.

Results

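LKP2 (AT2G18915, on chromosome 2) was expressed at 2 separate levels among 65 recombinant inbred lines (RILs) of Arabidopsis thaliana, and the lines were divided by it into LKP2-low and LKP2-high lines. A RIL is an inbred line that carries a fixed mosaic of the genomes of its parents, here the accessions Tnz-1 and Ws-2. For each line, log2(TPM + 1) of LKP2 was averaged over the 2 libraries of the line. TPM is a transcript abundance scaled by transcript length and by the library's total. The 18 lines with a mean under 3.8 were LKP2-low and the 47 lines with 3.8 or more were LKP2-high, out of 67 lines when the parents are counted. The groups were thus chosen by the measured level of LKP2, which is described here without a test.

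The LKP2-low and the LKP2-high lines were each sampled under extended light and in the dark. Whole seedlings were harvested at 12 days and at zeitgeber time (ZT) 10 h, after growth in short days (8 h light, 16 h dark) at 22 °C on MS medium with 3% sucrose, and no line carried a transgene by its labels. Extended-light seedlings had been kept 2 h past the usual lights-off at ZT 8 h, and dark seedlings had spent those 2 h in darkness. The treatments stood in 2 cabinets, and what the light did cannot be told apart from what the cabinet did. Each line and each parent gave 1 library per condition, 134 in all, from seedlings sown in clusters of about 50 seeds. The lines are thus the replicates, and each library may mix many seedlings of 1 line. In whole seedlings, fewer cells of a type and less RNA per cell cannot be told apart.

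LKP2 belongs with ZTL and FKF1 to a plant family of blue-light photoreceptors. Each member joins a light-sensing LOV domain to an F-box, through which it enters an SCF ubiquitin ligase, and to kelch repeats that bind partner proteins. ZTL targets the clock proteins TOC1 and PRR5 for degradation, FKF1 acts with GI on the CDF repressors of CO in photoperiodic flowering, and LKP2 overlaps with both in function.

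LKP2 differed about as much between the groups as between the parents. Under extended light the LKP2-low lines had 2.91 TPM in the lowest line, a median of 4.66 and 8.86 in the highest, against 15.49, 23.22 and 33.69 TPM in the LKP2-high lines. In the dark the LKP2-low lines ran from 4.62 through a median of 5.92 to 10.89 TPM, and the LKP2-high lines from 16.76 through 30.06 to 34.61 TPM. The groups did not overlap in either condition, and the dark library alone or the light library alone would have moved 0 lines to the other group. The means were 4.79 ± 1.34 TPM in LKP2-low lines (SD, n = 18) and 23.4 ± 3.38 TPM in LKP2-high lines (SD, n = 47) under extended light, and 6.27 ± 1.54 TPM in LKP2-low lines and 28.9 ± 3.75 TPM in LKP2-high lines in the dark (same n). Tnz-1 had 5.33 TPM under extended light and 4.83 in the dark, within the range of the LKP2-low lines. Ws-2 had 20.16 and 25.82 TPM, within the range of the LKP2-high lines.

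LKP2 was lower under extended light than in the dark in 17 of 18 LKP2-low lines and in 44 of 47 LKP2-high lines. The mean change, light minus dark on the log2(TPM + 1) scale, was -0.34 ± 0.31 (SD, n = 18) in LKP2-low lines and -0.29 ± 0.20 (SD, n = 47) in LKP2-high lines. The 2 levels of LKP2 thus stood apart in both conditions, while its change between conditions was of similar size in both groups.

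**Figure D1:**
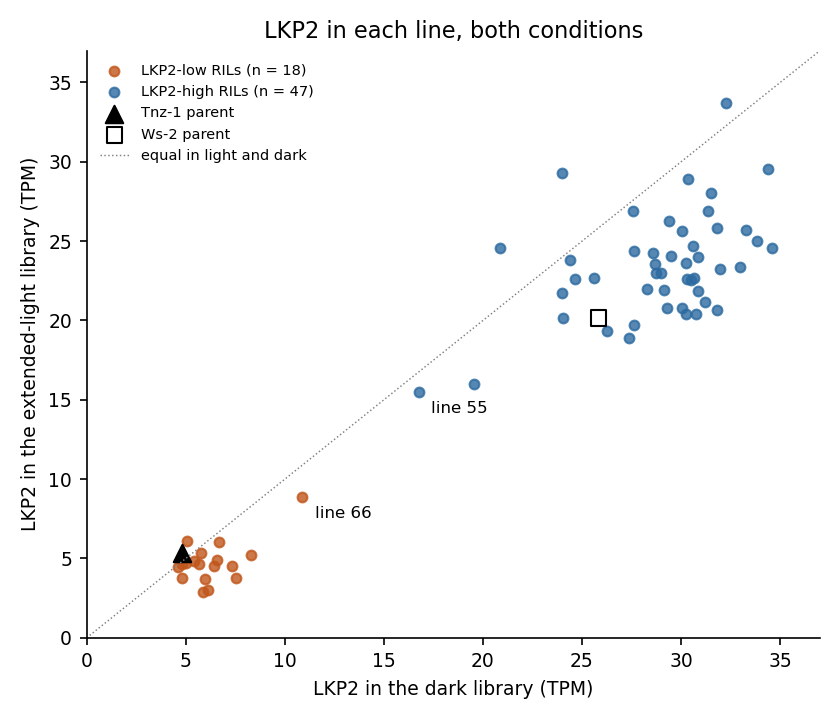
LKP2 of each line under extended light (y axis, TPM) against its value in the dark (x axis, TPM), with LKP2-low lines in orange, LKP2-high lines in blue and the parents in black. The 18 LKP2-low lines lie at or under 10.89 TPM in the dark and the 47 LKP2-high lines at or over 16.76 TPM, with lines 66 and 55 on the inner edge of each group.

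Line 66 and line 55 lay next to the limit of 3.8. Line 66, the highest LKP2-low line, had a mean log2(TPM + 1) of 3.44, and line 55, the lowest LKP2-high line, had 4.10. The next lines were line 68 at 2.93 and line 36 at 4.22. Line 66 also had in-between values at most of the genes compared beside LKP2, and line 55 at some of them. At the 9 genes near LKP2 whose groups did not overlap in either condition, line 66 reached a median of 22.7% of the LKP2-high median under extended light and 23.9% in the dark, and it was the highest LKP2-low line at 7 and 8 of them. Line 55 reached a median of 53.8% and 58.3% of the same LKP2-high medians, and it was the lowest LKP2-high line at 5 and 3 of the 9 genes. At the rest line 55 was not under all other LKP2-high lines. The origin of these values was not tested.

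The parental origin of the chromosome around LKP2 was read from 1504 marker genes, whose level differed by at least 2 log2 units between the parents in both conditions and which called each line as Tnz-1-like or Ws-2-like. These calls come from the same libraries as the comparisons and are not independent of them. Distance was counted in AT2G locus numbers, which follow gene order, and a gene was taken as near LKP2 within 5000 of LKP2's own number. Of the 70 markers near LKP2, a median of 94.3% was Tnz-1-like in the LKP2-low lines (range 42.9 to 100%), and 9 of 18 lines were Tnz-1-like at every one. In the LKP2-high lines the median was 0% and the highest value 30%, and 28 of 47 lines had no Tnz-1-like call there. At GUT15, AT2G18910, AT2G18917 and TXND9, which lie between locus numbers 18440 and 18990, all 18 LKP2-low lines and 0 of 47 LKP2-high lines were Tnz-1-like.

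Away from chromosome 2 the parental share did not separate the groups. The Tnz-1-like share of the 1276 markers there was 26.75% ± 13.97 in LKP2-low lines (SD, n = 18) and 26.84% ± 16.47 in LKP2-high lines (SD, n = 47). Single regions were still unbalanced. On chromosome 4, markers of locus numbers 37500 to 39999 were Tnz-1-like in 23.3% of calls in LKP2-low lines and 52.1% in LKP2-high lines, and on chromosome 5 those of 20000 to 22499 in 52.1% and 25.5%. The LUX-low class of lines, those with a mean log2(TPM + 1) of LUX under 4.5, held 4 of 18 LKP2-low lines and 7 of 47 LKP2-high lines. Line numbers were spread unevenly, with 1 LKP2-low and 15 LKP2-high lines among numbers 21 to 39. Of all pairs of lines, 7 had at least 97% equal marker calls, and both lines were LKP2-low in 2 of these pairs and LKP2-high in the others.

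All other genes were then compared between LKP2-low and LKP2-high lines with limma on log2(TPM + 1), LKP2-low minus LKP2-high. Calls required an adjusted p under 0.05 (Benjamini-Hochberg over the 18110 genes that averaged 1 TPM or more), and a call was large if it also differed by at least 1 log2 unit. Under extended light 8.01% of all genes tested were called, and in the dark 6.96%. The LKP2 segment stood well above this background. Of the 599 genes near LKP2, 355 were called under extended light (59.3%, 112 higher and 243 lower in LKP2-low lines) and 335 in the dark (55.9%, 128 higher and 207 lower). On the rest of chromosome 2, 453 of 2203 genes were called under extended light (20.6%) and 374 in the dark (16.98%). On the other chromosomes and the organelle genomes, 642 of 15308 genes were called under extended light (4.19%) and 551 in the dark (3.60%).

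The share of genes called followed the markers along chromosome 2. In the bin of locus numbers 17500 to 19999 that holds LKP2, markers were Tnz-1-like in 92.2% of calls in LKP2-low lines and 1.49% in LKP2-high lines, and 69.6% of genes were called under extended light and 60.1% in the dark. At the start of the chromosome, numbers 0 to 2499, markers were Tnz-1-like in 26.1% and 15.2% of calls in LKP2-low and LKP2-high lines, and 2.80% of genes were called under extended light and 0.935% in the dark. Over all genes, 1.51% were large calls under extended light (274 genes) and 1.31% in the dark (238 genes). Of these, 145 and 136 lay near LKP2, 117 and 96 on the rest of chromosome 2, and 12 and 6 off it. Without line 66 the large calls off chromosome 2 numbered 20 under extended light and 11 in the dark.

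**Figure D2:**
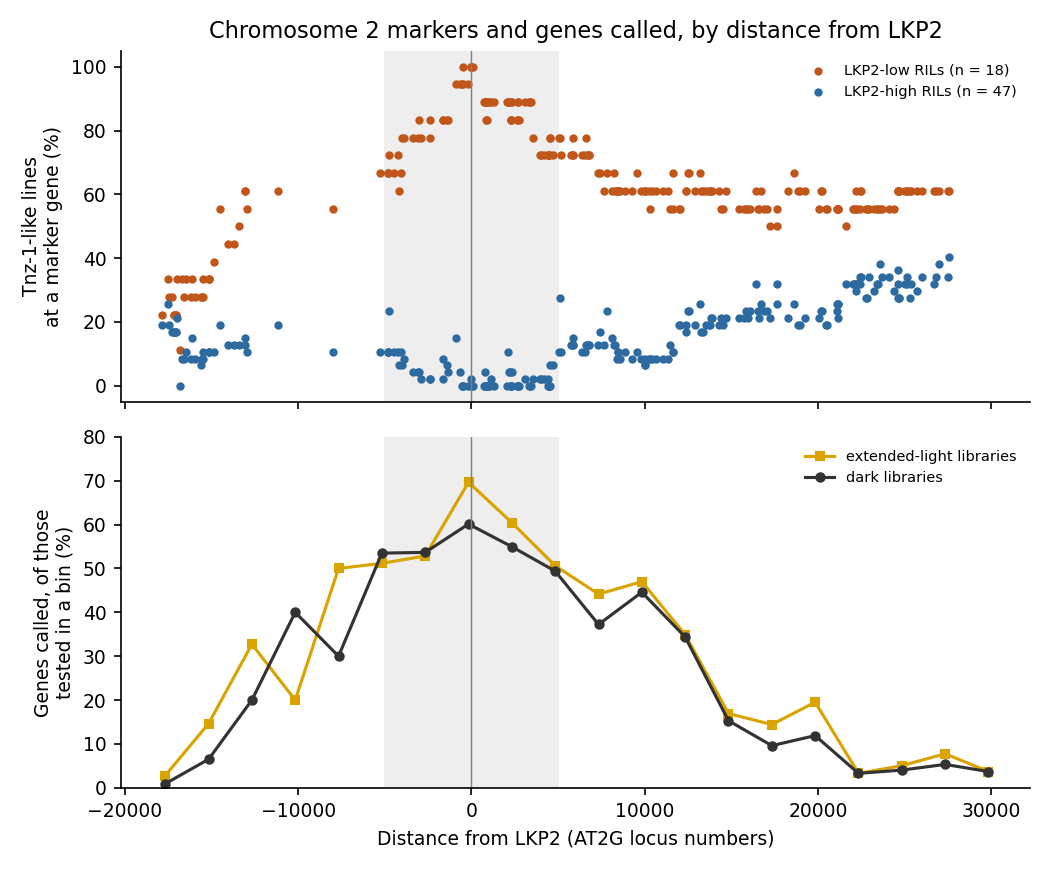
Upper panel, share of lines called Tnz-1-like (%) at each chromosome 2 marker gene in LKP2-low (orange) and LKP2-high lines (blue); lower panel, share of tested genes called (%) per bin of 2500 locus numbers under extended light and in the dark; x axis, distance from LKP2 in locus numbers, with the grey band marking genes near LKP2. Both the separation of the groups and the share of genes called peak at LKP2, where 69.6% and 60.1% of genes in the bin were called under extended light and in the dark.

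Near LKP2 most called genes were called in both conditions, and nearly all of those scored against the parents ran with them. Only 162 of the 355 genes called under extended light and 162 of the 335 called in the dark were scored. These were the genes whose parents differed by at least 1 log2 unit. Both conditions called 294 genes there, all 294 with the same sign, which was 82.8% of the genes called under extended light and 87.8% of those called in the dark. Off chromosome 2 both conditions called 113 genes, 112 with the same sign, or 17.6% and 20.5% of the calls in each condition. Among genes called near LKP2 whose parents differed by at least 1 log2 unit, 162 of 162 under extended light and 161 of 162 in the dark differed in the same direction as Tnz-1 minus Ws-2. Off chromosome 2 this held for 46 of 66 (69.7%) and 30 of 76 genes (39.5%). Among genes not called whose parents differed as much, it held near LKP2 for 60% of 20 and 67.6% of 37 genes. Off chromosome 2 it held for 49.35% and 49.61% of the genes not called. Among genes of the 2 parents that differed by at least 1 log2 unit in both conditions, 94 of 143 near LKP2 (65.7%) and 67.0% of those off chromosome 2 were lower in Tnz-1.

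Likeness to LKP2 over the line means was ranked apart for genes near LKP2 and for genes off chromosome 2. The rest of chromosome 2 was not ranked. Pearson's r over 65 lines is given as a description, because the lines fall into 2 levels set by LKP2 itself. The near genes most like LKP2 were SCY1 (r = 0.991), AT2G18410 (0.988), GUT15 (0.986), TXND9 (0.983) and AT2G18400 (0.981). SCY1 encodes a SecY homolog, part of a protein translocase of the plastid thylakoid. SCY1 had 4.91 TPM in the lowest, 7.40 in the median and 37.35 in the highest LKP2-low line under extended light, against 64.38, 140.2 and 172.8 TPM in the LKP2-high lines. In the dark it had 8.73, 9.91 and 46.51 TPM in LKP2-low lines, against 82.41, 158.2 and 201.6 TPM in LKP2-high lines. Line 66 was the highest LKP2-low line in both, and the groups did not overlap. The difference was -3.95 (SE 0.103, adjusted p 1.26e-42, limma) under extended light and -3.72 (SE 0.0905, adjusted p 2.37e-44, limma) in the dark.

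GUT15, a non-coding RNA gene, was the most abundant of these. It had 17.6 to 124.6 TPM (median 31.02) in LKP2-low lines and 333.6 to 880.4 TPM (median 613) in LKP2-high lines under extended light. In the dark the ranges were 18.57 to 160.5 TPM (median 30.07) in LKP2-low lines and 369.3 to 897.5 TPM (median 672) in LKP2-high lines. The groups did not overlap, and GUT15 was lower in LKP2-low lines by 4.18 and 4.33 log2 units. TXND9, a thioredoxin-like protein gene, was listed at 0 in 16 of 18 LKP2-low lines in either condition and at 11.4 to 40.6 TPM in every LKP2-high library. AT2G18400, a ribosomal protein L6 family gene, was listed at 0 in all LKP2-low lines but line 66, which had 6.39 TPM under extended light and 6.56 in the dark. TXND9 has a copy with 89.8% identity in coding sequence, which makes its values less certain.

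Of all genes tested, 9 near LKP2 and 0 farther away had groups that did not overlap in either condition. Beside SCY1, GUT15, TXND9 and AT2G18400 these were AT2G18770, AT2G18900, AT2G18910, AT2G18917 and AT2G19080. They run from AT2G18400 to AT2G19080, and all were lower in LKP2-low lines.

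The tested genes directly beside LKP2 were at or close to 0 in the LKP2-low lines. AT2G18910, a hydroxyproline-rich glycoprotein family gene, was listed at 0 in 15 of 18 LKP2-low lines under extended light and in 16 in the dark, and at 0 in both libraries of Tnz-1. In LKP2-high lines it had 8.14 to 22.9 TPM (median 16.2) under extended light and 9.88 to 37.7 TPM (median 21.6) in the dark. AT2G18917, a long non-coding RNA gene that overlaps LKP2 on the opposite strand, was listed at 0 in all LKP2-low lines but 1 in either condition. It had 2.08 to 10.4 TPM in LKP2-high lines under extended light and 2.27 to 11.8 TPM in the dark. The kit marks strand, but whether the quantification used it is not stated, so reads of LKP2 and AT2G18917 may not be told apart.

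Other genes next to LKP2 went both ways or were not called. AT2G18900, a WD40 repeat gene, had a median of 1.88 TPM in LKP2-low lines and 22.97 TPM in LKP2-high lines under extended light, and 2.26 against 22.71 TPM in the dark, with no overlap in either. AT2G18876, which shares its strand with an overlapping gene, was higher by 0.79 log2 units under extended light and by 0.92 in the dark. HPT1, the homogentisate phytyltransferase of vitamin E synthesis, was higher by 0.41 and 0.30 log2 units, with overlapping groups. HA1, a plasma membrane proton pump, was lower by 0.19 log2 units under extended light (adjusted p 0.000156, limma), while in the dark its difference was -0.06 (adjusted p 0.381, limma). A copy of HA1 has 90.23% identity. AT2G18890, a protein kinase gene, was lower by 0.21 log2 units under extended light (adjusted p 0.0486, limma, called in 10 of 14 alternatives) and by 0.35 in the dark. AT2G18969, annotated as a transcription regulator and overlapped by a gene on the opposite strand, was listed at 0 in 16 of 18 LKP2-low lines under extended light and in 17 in the dark, with medians of 2.44 and 0.64 TPM in LKP2-high lines. AT2G18940, a tetratricopeptide repeat gene 25 locus numbers from LKP2, had medians of 49.8 TPM in LKP2-low and 53.15 TPM in LKP2-high lines under extended light and 47.45 and 45.61 TPM in the dark. Its differences were -0.08 and 0.03 (adjusted p 0.416 and 0.769, limma). AT2G18860, a syntaxin family gene, differed by 0.06 under extended light and -0.22 in the dark (adjusted p 0.683 and 0.164, limma). Lower listed values thus reached beyond LKP2 itself, yet genes a few locus numbers apart differed in opposite directions or were not called. Whether reads of the Tnz-1 and Ws-2 alleles were counted equally well, for LKP2 too, was not tested.

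The largest differences near LKP2 were genes close to 0 in most lines of one group. AT2G21530, an FHA domain gene, was listed at 0 in 11 of 18 LKP2-low lines under extended light and in 14 in the dark, with the highest of the others at 203 and 150.8 TPM, while LKP2-high lines had 83.99 to 237.8 and 67.12 to 190.7 TPM. AT2G16510, a subunit c of the vacuolar ATPase, AT2G16005, a lipid recognition protein gene, AT2G19740 and AT2G19750, ribosomal proteins of the L31e and S30 families, and AT2G23120, a late embryogenesis abundant protein, were lower in the same way. Their medians were 0 to 1.62 TPM in LKP2-low lines and 94.99 to 286.5 TPM in LKP2-high lines. AT2G16510, AT2G19740 and AT2G19750 have copies of 85.2 to 90.0% identity, so their values are less certain.

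In the other direction, PIN1AT, a peptidyl-prolyl isomerase, had a median of 115.1 TPM in LKP2-low lines and 1.19 TPM in LKP2-high lines under extended light, and 104.7 against 1.14 TPM in the dark. TLP2, a tubby-like protein, had medians of 104.2 and 8.98 TPM in LKP2-low and LKP2-high lines under extended light, and 120.5 and 13.11 TPM in the dark. AT2G14880, AT2G21045, ALDH6B2 and MLO8 were also higher in LKP2-low lines, by 1.85 to 4.35 log2 units. Each of these 12 genes had lines of either group inside the range of the other, unlike the genes closest to LKP2.

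Several genes of light and flowering pathways are carried near LKP2 and differed with it. PHYB, the main red-light photoreceptor of light-grown plants, lies 125 locus numbers away. It had 24.06 to 36.9 TPM (median 30.62) in LKP2-low lines and 31.31 to 48.63 TPM (median 37.99) in LKP2-high lines under extended light. In the dark it had 10.28 to 23.07 TPM (median 15.33) in LKP2-low lines and 12.16 to 33.92 TPM (median 20.28) in LKP2-high lines. The ranges overlapped, and PHYB was lower in LKP2-low lines by 0.32 log2 units (SE 0.0449, adjusted p 8.60e-08, limma) under extended light and by 0.43 (SE 0.0775, adjusted p 3.66e-05, limma) in the dark. The parents went the other way, with 41.61 TPM in Tnz-1 and 39.83 in Ws-2 under extended light and 29.83 and 19.33 TPM in the dark, from 1 library each. A copy, PHYD, has 81.0% identity to PHYB.

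PIF1, a phytochrome-interacting repressor of seed germination and greening, was lower in LKP2-low lines too. Its medians were 28.34 and 48.68 TPM in LKP2-low and LKP2-high lines under extended light (difference -0.66, adjusted p 3.58e-08, limma) and 31.8 and 45.56 TPM in the dark (-0.43, adjusted p 0.000115, limma). Here also the parents ran opposite to the lines, with 37.03 TPM in Tnz-1 and 26.85 in Ws-2 under extended light and 55.5 and 34.12 TPM in the dark. SVP, a MADS-box repressor of flowering, had medians of 43.45 and 77.46 TPM in LKP2-low and LKP2-high lines under extended light and of 52.53 and 78.7 TPM in the dark. It was lower in LKP2-low lines by 0.71 and 0.57 log2 units (adjusted p 8.68e-10 and 1.90e-08, limma). Its parents ran the same way as the lines, with 35.81 TPM in Tnz-1 and 69.04 in Ws-2 under extended light and 29.63 and 66.71 TPM in the dark.

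TPS11, a class II trehalose-phosphate synthase gene that rises in dark and starved leaves, had 14.2 to 58.28 TPM (median 33.63) in LKP2-low lines and 31.63 to 196.9 TPM (median 76.56) in LKP2-high lines under extended light. In the dark it had 37.37 to 148.4 TPM (median 68.56) in LKP2-low lines and 40.28 to 313.7 TPM (median 191.6) in LKP2-high lines. It was lower in LKP2-low lines by 1.29 and 1.37 log2 units (adjusted p 7.78e-09 and 1.56e-10, limma), and the highest LKP2-low value in the dark, 148.4 TPM, was that of line 66. MIOX2, an inositol oxygenase, was lower by 0.87 log2 units under extended light and 2.31 in the dark.

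**Figure D3:**
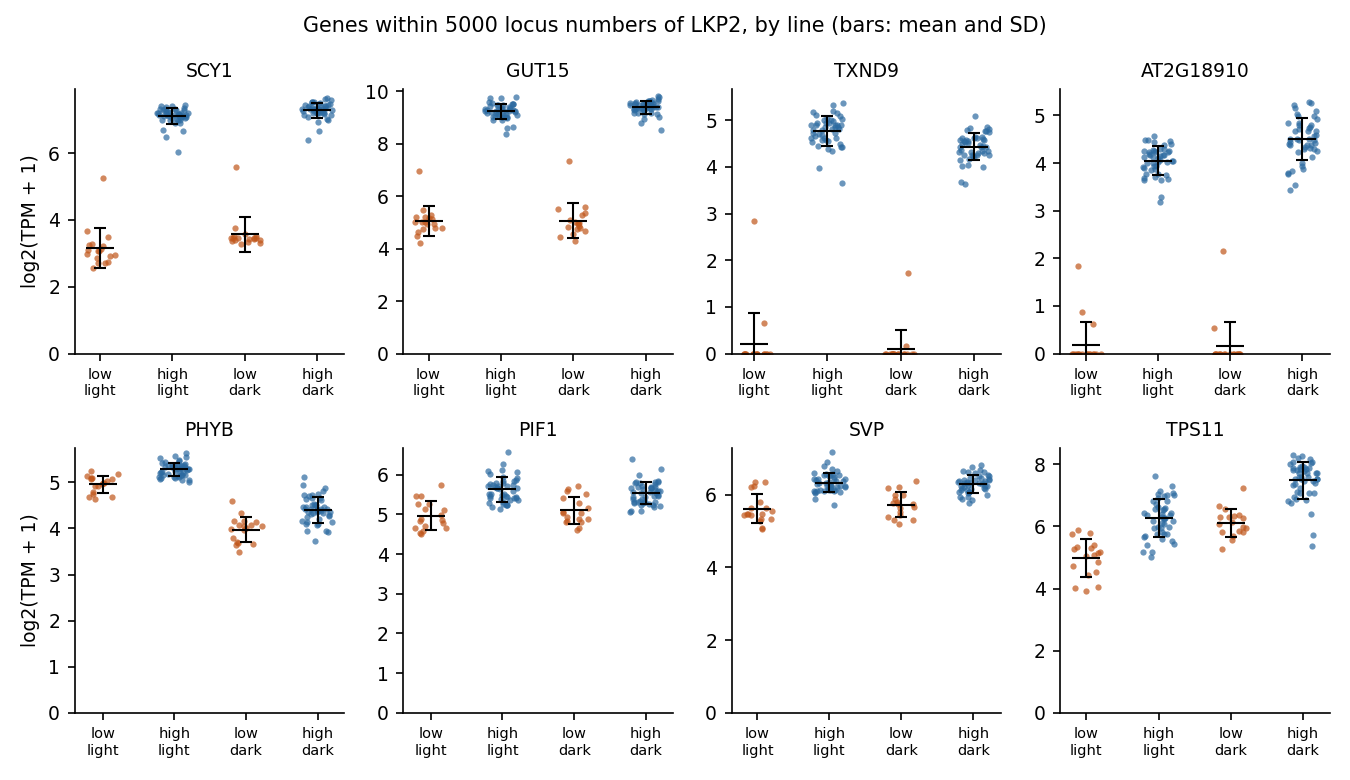
Log2(TPM + 1) (y axis) of 8 genes near LKP2 in each LKP2-low line (orange, n = 18) and LKP2-high line (blue, n = 47) under extended light and in the dark, with bars for the mean and SD. SCY1, GUT15, TXND9 and AT2G18910 form separate bands with 1 in-between LKP2-low line, which is line 66, while PHYB, PIF1, SVP and TPS11 overlap between groups and are lower on average in LKP2-low lines.

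The genes of the LKP2 family and its partners lie on other chromosomes. Of 11 tested, limma called 1 under extended light (9.09%) and 0 in the dark, where 2 and 5 had an unadjusted p under 0.05. Over all genes 8.01% and 6.96% were called, and off chromosome 2 4.19% and 3.60%, so the family's count of calls was near that of other genes. The share of all genes with an unadjusted p under 0.05 is not given, so nothing is read from the unadjusted counts. ZTL had medians of 48 TPM in LKP2-low and 48.95 TPM in LKP2-high lines under extended light and 49.87 and 53.91 TPM in the dark, with differences of -0.07 and 0.00 (adjusted p 0.522 and 0.983, limma). FKF1 had medians of 44.3 and 40.12 TPM in LKP2-low and LKP2-high lines under extended light and 17.09 and 17.1 TPM in the dark (adjusted p 0.721 and 0.676, limma). GI, the clock protein that ZTL and FKF1 bind, differed by -0.12 under extended light and 0.15 in the dark (adjusted p 0.669 and 0.391, limma). The median difference over the 11 genes was 0.06 under extended light and 0.08 in the dark, against 0.01 and 0.06 over all genes tested. The called gene was the chaperone HSP90.1, with medians of 11.77 TPM in LKP2-low lines and 7.69 TPM in LKP2-high lines under extended light (difference 0.50, adjusted p 0.0266, limma, called in 12 of 15 alternatives).

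Among 12 tested targets of the LKP2 family and genes of flowering output, 5 were called under extended light (41.7%) and 4 in the dark (33.3%), against 8.01% and 6.96% over all genes. SVP, near LKP2, and SOC1, on the rest of chromosome 2, were among the called genes in both conditions. Of the 9 members off chromosome 2, 3 (33.3%) and 2 (22.2%) were called, against 4.19% and 3.60% of all genes there. These were FLC and CHE in both conditions and CO under extended light, all on chromosome 5. In their bins of locus numbers, LKP2-low lines were Tnz-1-like more often than LKP2-high lines. Marker calls there were Tnz-1-like in 45.7% and 23.4% for FLC, 45.2% and 21.9% for CHE and 39.4% and 25.5% for CO. The part of this imbalance in the count was not tested. TOC1 and PRR5, the clock repressors that ZTL targets, were not called, with differences of -0.07 and 0.02 under extended light and -0.09 and 0.08 in the dark. FLC, the MADS-box repressor of flowering, was higher in LKP2-low lines. It had 10.8, 21.46 and 70.23 TPM in the lowest, median and highest LKP2-low line under extended light, against 4.06, 12.3 and 28.73 TPM in LKP2-high lines. In the dark it had 6.81, 19.14 and 57.32 TPM in LKP2-low lines, against 4.28, 10.22 and 22.17 TPM in LKP2-high lines. The groups overlapped, with the highest values in LKP2-low lines. The difference was 0.85 (SE 0.174, adjusted p 0.000311, limma) under extended light and 0.91 (SE 0.159, adjusted p 2.08e-05, limma) in the dark, and both calls held in all 15 alternative analyses.

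FLC lies on chromosome 5, where lines carried either parent's allele. Tnz-1 had 26.38 TPM under extended light and 28.98 in the dark, against 2.68 and 3.99 TPM in Ws-2. In the dark, lines that were Tnz-1-like around FLC averaged 18.31 TPM in LKP2-low lines (SD 5.32, n = 8) and 10.53 TPM in LKP2-high lines (SD 2.36, n = 11). Ws-2-like lines averaged 27.1 TPM (SD 15.9, n = 10) in LKP2-low lines and 11.3 TPM (SD 4.87, n = 36) in LKP2-high lines. FLC thus averaged higher in LKP2-low lines on either local background. Within the 4 ranges of line numbers its difference ran from 0.73 to 1.002 under extended light and from 0.70 to 1.34 in the dark, and in 1 of these ranges a single LKP2-low line was compared.

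SOC1, a flowering activator that FLC and SVP repress, lies on chromosome 2 but 26745 locus numbers from LKP2. It had medians of 28.06 TPM in LKP2-low and 50.25 TPM in LKP2-high lines under extended light and 35.69 and 47.04 TPM in the dark. It was lower by 0.80 log2 units (adjusted p 0.000243, limma) and 0.50 (adjusted p 0.0388, limma), and the dark call was lost without near-identical lines (adjusted p 0.0693) and with the limit at 4.3. CO, which activates FT in long days, was lower by 0.47 log2 units under extended light (adjusted p 0.0358, limma), at medians of 4.02 and 5.36 TPM in LKP2-low and LKP2-high lines. With a local marker covariate the CO difference was -0.39 (adjusted p 0.0683, limma). FT itself was not tested, because its mean was under 1 TPM.

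CHE, a TCP transcription factor that represses CCA1, was lower in LKP2-low lines by 0.54 log2 units under extended light (adjusted p 0.0223, limma) and 0.66 in the dark (adjusted p 0.030, limma). Its level followed its own region of chromosome 5. In the dark, Tnz-1-like lines there averaged 16.2 TPM in LKP2-low lines (SD 3.35, n = 8) and 25.5 TPM in LKP2-high lines (SD 4.75, n = 10), and Ws-2-like lines averaged 57.8 TPM (SD 7.98, n = 10) and 64.7 TPM (SD 15.03, n = 37). With a local marker covariate the differences were -0.28 and -0.32 (adjusted p 0.0405 and 0.0388, limma), and the dark call was lost within ranges of line numbers (adjusted p 0.0502) and with the limit at 4.3.

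In the other lists most called genes were linked to LKP2 or on chromosome 2. Over all 102 listed genes tested, 12 were called under extended light (11.8%) and 11 in the dark (10.8%), and of the 84 off chromosome 2, 6 (7.14%) and 4 (4.76%), against 4.19% and 3.60% of all genes there. Among 16 other clock genes, 1 was called under extended light and 1 in the dark (6.25% each). RVE4, a MYB-like clock activator with an 80.8% identical copy, was lower by 0.31 log2 units under extended light, and BOA, the LUX relative, was higher by 0.20 in the dark. The BOA call was lost after median-of-ratios scaling, without near-identical lines (adjusted p 0.062, limma) and in the fit of both conditions. Among 21 photoreceptor and PIF pathway genes, the linked PHYB and PIF1 were called in both conditions and the cryptochrome CRY2 in the dark alone, with a difference of 0.08 that was called in 9 of 15 alternatives. Among 10 light-induced genes NIA1, a nitrate reductase, was lower by 0.63 under extended light (adjusted p 0.0476, limma, called in 11 of 15 alternatives), and MYB12, a flavonol regulator on chromosome 2, was lower by 0.41 in the dark. Among 12 dark-induced genes the linked TPS11 and MIOX2 were called in both conditions, and none of the unlinked members was.

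Marker lists of tissues were set beside these results. Limma called 0 of 6 shoot, 0 of 5 root and 0 of 9 seed storage genes in either condition, where 0, 1 and 4 of them had an unadjusted p under 0.05 under extended light and 1, 0 and 1 in the dark. Over all genes 8.01% were called under extended light and 6.96% in the dark, so 0 calls do not set lists this short apart. The unadjusted counts have no share of all genes beside them, and nothing is read from them. The 9 seed storage transcripts summed to a median of 679 TPM in LKP2-low lines (77.3 to 8407) and 364 TPM in LKP2-high lines (1.59 to 7989) under extended light, and to 506 TPM (29.9 to 16360) and 407 TPM (5.38 to 6642) in the dark. The median difference of these 9 genes was 1.35 and 0.71 log2 units, and their part in the other results was not tested.

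Off chromosome 2, the largest called differences were small in number. Large calls with the same sign in both conditions were 3 genes, of which 2 had a mean of at least 5 TPM. AT3G04000, a dehydrogenase-reductase family gene, was higher in LKP2-low lines. It had 25.43, 46.94 and 124.6 TPM in the lowest, median and highest LKP2-low line under extended light, against 2.31, 20.64 and 64.2 TPM in LKP2-high lines, and 5.93, 17.13 and 47.05 TPM in the dark, against 0.65, 7.98 and 31.42 TPM. The groups overlapped. The difference was 1.35 (adjusted p 3.97e-05, limma) under extended light and 1.21 (adjusted p 0.000716, limma) in the dark, and both calls held in all 15 alternatives. The parents ran the other way, with 30.92 TPM in Tnz-1 and 44.95 in Ws-2 under extended light and 5.47 and 14.77 TPM in the dark. Its own region of chromosome 3 was Ws-2-like in 17 of 18 LKP2-low and 35 of 47 LKP2-high lines. In the dark, Ws-2-like lines averaged 21.3 TPM in LKP2-low lines (SD 12.2, n = 17) and 11.3 TPM in LKP2-high lines (SD 6.09, n = 35), and Tnz-1-like lines had 12.38 TPM in 1 LKP2-low line and an average of 2.57 TPM (SD 1.48, n = 12) in LKP2-high lines. With a local marker covariate the differences were 1.14 and 0.97 (adjusted p 0.00201 and 0.0056, limma).

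AT5G21060, a glyceraldehyde-3-phosphate dehydrogenase-like gene, was lower in LKP2-low lines by 1.58 log2 units under extended light (adjusted p 0.0115, limma) and 1.33 in the dark (adjusted p 0.0402, limma). It was almost off wherever the line was Tnz-1-like around it. In the dark, Tnz-1-like lines averaged 1.29 TPM in LKP2-low lines (SD 0.522, n = 8) and 1.47 TPM in LKP2-high lines (SD 0.439, n = 11), against 17.5 TPM (SD 12.3, n = 10) and 23.96 TPM (SD 4.91, n = 36) in Ws-2-like lines of each group. With a local marker covariate its differences were -0.87 and -0.64. The dark call was lost with the limit at 4.3 (adjusted p 0.170), within ranges of line numbers (0.0747), without near-identical lines (0.0758) and with no filter on low values (0.0518), and the light call with the limit at 4.3 (0.0504).

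The genes off chromosome 2 most like LKP2 over the 65 line means were AT3G15570 (r = 0.584), PRA1.E (-0.582), AT1G17970 (0.580), AT5G16030 (0.578) and FLC (-0.567). All these correlations were well under those of the genes beside LKP2. AT3G15570, a member of the NPH3 family of phototropism proteins, had medians of 22.55 TPM in LKP2-low and 29.23 TPM in LKP2-high lines under extended light and 26.08 and 36.55 TPM in the dark. It was lower by 0.37 and 0.47 log2 units (adjusted p 0.00233 and 0.000115, limma) and was called in all 15 alternatives in both conditions. AT5G16030 was lower by 0.83 and 0.71 log2 units and was also called in all of them. PRA1.E, a Rab acceptor, was higher by 0.22 and 0.14 log2 units, of which the dark call was lost after median-of-ratios scaling. AT1G17970, a RING protein gene, was lower by 0.32 under extended light, and its difference in the dark was -0.11 (adjusted p 0.259, limma).

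**Figure D4:**
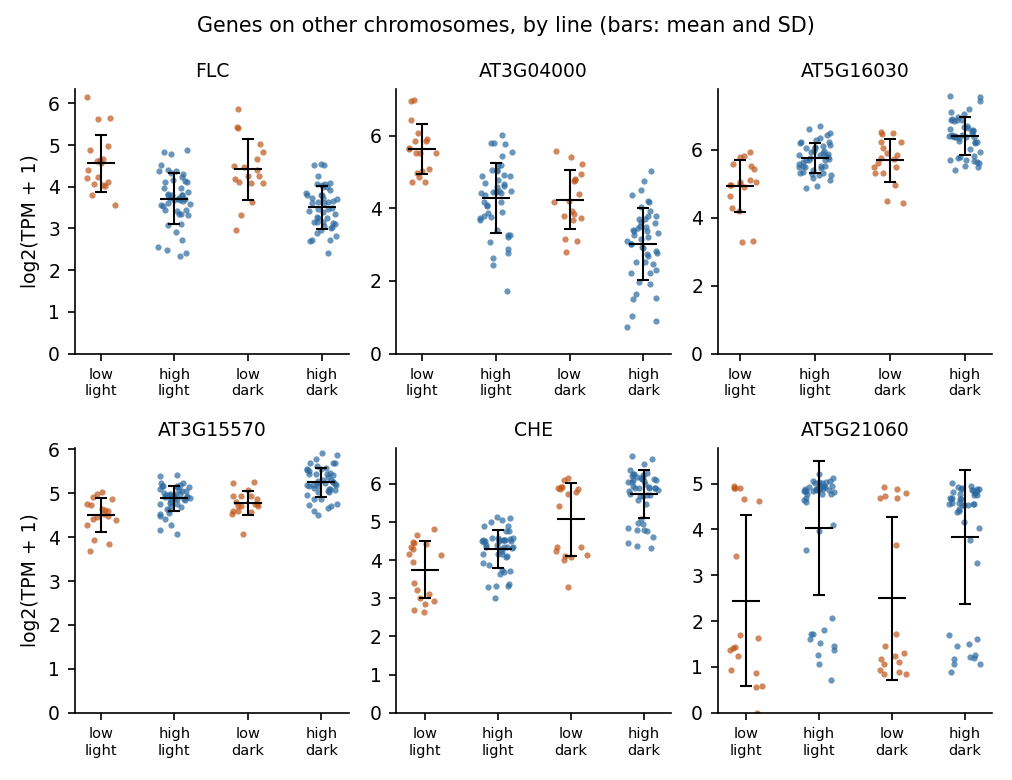
Log2(TPM + 1) (y axis) of 6 genes on other chromosomes in each LKP2-low line (orange, n = 18) and LKP2-high line (blue, n = 47) under extended light and in the dark, with bars for the mean and SD. FLC and AT3G04000 are higher and the other 4 lower on average in LKP2-low lines, all with overlap, and CHE and AT5G21060 form 2 levels within each group.

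The counts off chromosome 2 depended on the scaling and on the lines. Under extended light 399 genes were higher and 243 lower in LKP2-low lines, and 468 and 83 in the dark. After median-of-ratios scaling the split was 484 and 276 under extended light and 168 and 173 in the dark. The median difference over all genes was 0.015 under extended light and 0.063 in the dark, and 0.004 and 0.0098 after scaling. Without line 66 the count was 961 genes under extended light, 649 higher and 312 lower, and 729 in the dark, 615 higher and 114 lower. With the range of line numbers as a factor it was 431 and 264, of which 359 and 228 were among the 642 and 551. With a local marker covariate, 671 and 553 of 15122 genes were called, of which 446 and 372 were also called without it on the same genes.

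The unbalanced regions given here held more calls than the share off chromosome 2, except chromosome 5 numbers 0 to 12499 in the dark. Off chromosome 2, 4.25% of the 15122 genes with a local marker were called under extended light and 3.62% in the dark. At chromosome 4 numbers 35000 to 39999, 47 of 403 genes were called under extended light (11.7%) and 50 in the dark (12.4%), and with the local marker covariate 18 (4.47%) and 14 (3.47%). At chromosome 3 numbers 2500 to 7499, 8.85% and 8.35% of 407 genes were called, and 7.37% and 5.41% with the covariate. At chromosome 5 numbers 0 to 12499, 4.93% and 3.33% of 872 genes were called, and 3.21% and 2.29% with the covariate. Limma called 0 of 74 plastid and 0 of 17 mitochondrial genes in either condition, with an unadjusted p under 0.05 for 1 plastid gene under extended light and for 0 otherwise.

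The change between dark and extended light within a line was compared last, as light minus dark in LKP2-low lines minus the same in LKP2-high lines. Of 18110 genes 176 were called (0.972%), 29 with a higher and 147 with a lower change in LKP2-low lines. Near LKP2 30 of 599 genes were called, and off chromosome 2 106 of 15308. After median-of-ratios scaling 139 genes were called, 80 higher and 59 lower, of which 87 were among the 176, so the balance of directions rests on the scaling. Without near-identical lines the count was 93, and with the limit at 4.3, which moves 2 lines to LKP2-low, it was 60.

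AGP17, an arabinogalactan protein gene 4215 locus numbers from LKP2, had the largest difference in change, which its values at 0 fix in part. It was listed at 0 in 13 of 18 LKP2-low lines under extended light and in 12 in the dark, with the highest at 22.41 and 213.6 TPM. LKP2-high lines had a median of 11.85 TPM (0 to 24.19) under extended light and 168.7 TPM (2.91 to 292) in the dark. The change was 0 in 12 LKP2-low lines and negative in the other 6, against a mean of -3.65 ± 0.53 log2 units (SD, n = 47) in LKP2-high lines. A gene listed at 0 in the dark cannot be seen to fall, so the difference of 2.73 restates the lower level of AGP17 in the dark, and no test is given for it. MIOX2 changed less in LKP2-low lines as well, with medians of 2.32 TPM under extended light and 35.41 in the dark, against 4.82 and 222.4 TPM in LKP2-high lines (difference 1.45, adjusted p 0.0138, limma). With a pseudocount of 0.1 its adjusted p was 0.0667. Both genes were also lower in the dark in LKP2-low lines, and the part of that level in the smaller change was not tested.

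AT2G20670, a gene of the DUF506 family, was lower under extended light than in the dark in 18 of 18 LKP2-low and 46 of 47 LKP2-high lines, and by more in LKP2-low lines. It had medians of 33.08 TPM under extended light and 777.1 in the dark in LKP2-low lines, against 86.97 and 673.1 TPM in LKP2-high lines. The change was -4.17 ± 1.32 (SD, n = 18) in LKP2-low and -2.79 ± 1.04 (SD, n = 47) in LKP2-high lines, a difference of -1.39 (SE 0.307, adjusted p 0.014, limma). AT2G21187, a non-coding RNA gene near LKP2, was higher under extended light in 42 of 47 LKP2-high lines and in 7 of 18 LKP2-low lines (difference -1.46, adjusted p 0.0385, limma, called in 9 of 14 alternatives). AT2G26695, at 7780 locus numbers, had a lower change too (-0.87), as did AT2G15830 (-0.90), which was listed at 0 in 14 of 18 LKP2-low lines in the dark. HSFA2, a heat stress transcription factor on the rest of chromosome 2, had a higher change (1.42), called in 8 of 14 alternatives, and was listed at 0 in the dark in 9 of 18 LKP2-low and 5 of 47 LKP2-high lines. Beside these, AT2G16660, a major facilitator gene, had a higher change (1.51).

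Off chromosome 2, DFL2, an auxin-responsive GH3 family gene, had differences of opposite sign in the 2 conditions. It was higher in LKP2-low lines under extended light, at medians of 16.63 against 11.94 TPM (difference 0.41, adjusted p 0.0383, limma, a call lost at 0.0901 with the range of line numbers as a factor), and lower in the dark, at 20.7 against 29.38 TPM (difference -0.48, adjusted p 0.00606, limma). It was lower under extended light than in the dark in 11 of 18 LKP2-low lines and in 45 of 47 LKP2-high lines, and its changes differed by 0.89 (SE 0.169, adjusted p 0.00245, limma), a call that held in all 15 alternatives. AT5G66650, a calcium uniporter family gene, was higher under extended light in 15 of 18 LKP2-low and 45 of 47 LKP2-high lines, with changes of 0.39 ± 0.50 in LKP2-low and 1.29 ± 0.74 in LKP2-high lines (SD). AT5G46710, a PLATZ transcription factor, had changes of -0.33 ± 0.41 in LKP2-low and 0.44 ± 0.80 in LKP2-high lines. AT1G17990 had a higher change in LKP2-low lines by 0.75, but its coding sequence is matched at 100% identity by another gene, so its reads may not be its own.

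Of the 102 listed genes tested, 4 differed in their change (3.92%, against 0.972% over all genes). Of the 84 off chromosome 2, 2 did (2.38%, against 0.692% of all genes there). The 4 genes were SOC1 (-0.30), RVE4 (-0.35), the Rubisco subunit gene RBCS1A (0.16) and MIOX2. RBCS1A was called in 6 of 15 alternatives and lost its call without line 66 (difference 0.15, adjusted p 0.0708, limma). SOC1 was lower under extended light than in the dark in 13 of 18 LKP2-low lines and in 18 of 47 LKP2-high lines (adjusted p 0.049, limma, called in 8 of 14 alternatives). The LKP2 relative FKF1 and its partner GI moved the same way in both groups. FKF1 was higher under extended light than in the dark in 18 of 18 LKP2-low and 47 of 47 LKP2-high lines, with a difference in change of 0.12 (adjusted p 0.534, limma), and so was GI, with a difference in change of -0.27 (adjusted p 0.243, limma).

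**Figure D5:**
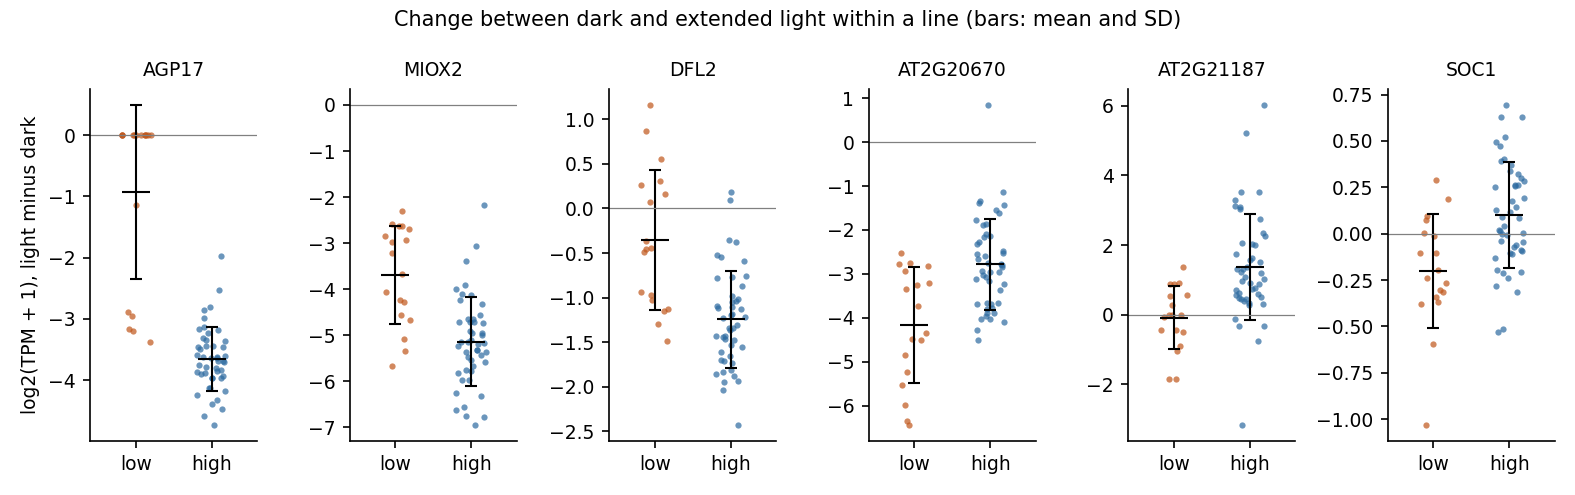
Change of log2(TPM + 1), extended light minus dark (y axis), of 6 genes in each LKP2-low line (orange, n = 18) and LKP2-high line (blue, n = 47), with bars for the mean and SD. MIOX2 and DFL2 changed less downward in LKP2-low lines, AGP17 stayed at a change of 0 in the 12 LKP2-low lines that listed it at 0 in the dark, AT2G20670 changed further downward, AT2G21187 was higher under extended light in few LKP2-low lines, and SOC1 was slightly down in LKP2-low lines, while the groups overlap in all 6.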

How the data were processed

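Gene expression was measured by RNA-seq of whole seedlings in 65 RILs and both parents, with 1 library per line and condition. Per the labels' protocols, libraries were directional and made from poly(A) RNA. The authors deposited 1 table of TPM values for 28775 genes, rounded to 2 decimals. Per the submitters' processing notes, cutadapt 3.4, Salmon 1.6.0, GATK and the build TAIR10 were used, and what each was used for is not given in the sources used here. Read depth cannot be had from TPM, so intervals from counts are not given. Genes listed at 0 numbered 7999 to 10459 per RIL library. A 0 is reported as listed, not as absent.

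The labels write a RIL as WT and a number, which was taken as the line. The 65 lines were divided by LKP2, and the limit, the gene lists and the members were chosen with earlier results of these data known. All tests used lmFit and trended eBayes of limma 3.58.1 (R 4.3.3) on log2(TPM + 1), with a pseudocount of 1, on 18110 genes with a mean of at least 1 TPM. LKP2 was left out. A log2 difference on this scale understates that of low genes. The change between conditions was tested on the difference of the 2 libraries of a line, since by label both come from 1 inbred line. Deviations from the condition means correlated between the 2 libraries of a line with r of 0.492 to 0.886, against a median of -0.02 between different lines. Lines from 1 cross share segments and some are near identical, so p-values measure the spread between lines and are too small where lines are not independent.

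Genes named were LKP2, the 5 tested genes on each side of it, and the 6 largest in each direction near LKP2, off chromosome 2 (large calls in both conditions) and in light change, at a mean of at least 5 TPM. The genes of the lists, the 5 near genes most like LKP2 and the 5 genes off chromosome 2 most like it were named too. AT2G18770 and AT2G19080 were named after their values were seen. Marker genes were kept where at least 90% of lines had the same call in both conditions and at least 85% matched the majority of the 5 markers on each side. Symbols, overlaps and coding identity (blastn 2.17.0, at least 50% of the length) were taken from the annotation of TAIR10.1 (28009 of 28775 identifiers matched). Coordinates are not printed because the builds differ in name. The fits were tested on simulated data. The alternatives were another pseudocount, filter, scaling, limit, grouping library and distance, 3 covariates, a local marker covariate, the replicate block, and fits without near-identical lines. Grouping by either library alone gave the main groups, so those fits repeat the main fit. The fit without line 66 was added after seeing the data.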

Additional observations from a re-analysis of the deposited data

Results flagged for a closer look

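By limma's test of the difference itself, the change between dark and extended light differed between the groups for 17 of 158 genes named by rule. Not all 158 were tested, since LKP2 was left out and some listed genes averaged under 1 TPM. Some of the 17 were named because this test called them, so the count was fixed in part by their choice. Over all 18110 genes tested, 0.972% were called. All values are LKP2-low minus LKP2-high on the log2(TPM + 1) scale.

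Near LKP2 the change was higher in LKP2-low lines by 2.73 for AGP17, 1.51 for AT2G16660, 1.45 for MIOX2 and 0.48 for AT2G18910. It was lower there, with differences of -1.46 for AT2G21187, -1.39 for AT2G20670, -0.90 for AT2G15830 and -0.23 for SCY1. In LKP2-low lines AGP17 was listed at 0 in 13 of 18 under extended light and in 12 in the dark, and AT2G18910 in 15 and 16. A fall could not be seen in those lines, so these 2 values restate the lower level and are no evidence of another response to light. AT2G21187 and AT2G15830 were also listed at 0 in part of the LKP2-low libraries, so the size of their differences depends on the pseudocount.

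On the rest of chromosome 2 the difference was 1.42 for HSFA2 (called in 8 of 14 alternatives), -0.87 for AT2G26695 and -0.30 for SOC1. On other chromosomes it was 0.89 for DFL2, 0.75 for AT1G17990 and 0.16 for RBCS1A, and it was -0.89 for AT5G66650, -0.77 for AT5G46710 and -0.35 for RVE4.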

How the results depend on the processing

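Near LKP2 the number of calls under extended light and in the dark stayed within 1.5 times under every alternative run there but a narrower distance. Within 2500 locus numbers 218 of 355 tested genes were called under extended light and 192 of 355 in the dark. At the main distance 355 of 599 tested genes were called under extended light and 335 of 599 in the dark. Fewer genes were tested at the narrower distance, so its lower counts alone do not show a weaker result. The local marker covariate was run off chromosome 2 only. For the change, the 30 calls near LKP2 became 46 with the Tnz-1-like share off chromosome 2 as a covariate and 7 with no replicate block. Off chromosome 2 the 551 dark calls became 341 after median-of-ratios scaling, 264 with the range of line numbers as a factor and 138 with the limit at 4.3. There the 642 calls under extended light became 1061 with the limit at 3.3. The 176 calls for the change became 321 with the Tnz-1-like share off chromosome 2 as a covariate, 93 without near-identical lines, 60 with the limit at 4.3 and 14 with no replicate block. The cause of these shifts was not tested, beyond the pairing by line that the last one leaves out.

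Of 125 values of named genes, recomputed 1785 times in all, 1689 kept direction and call, 84 lost the call and 12 reversed. Grouping by the dark or the light library alone moved 0 lines, so these 2 alternatives repeated the main fit and kept all 125 values. They also count among the alternatives given for single genes. In the fit of both conditions with the line as a replicate block, which averages the 2 conditions, 752 genes off chromosome 2 were called and the value was -0.0357 for DFL2, reversed under extended light. In it ZTL was at -0.0328 and FKF1 at 0.00167 for the dark, and GI at 0.0175 for extended light. ZTL in the dark was also reversed, to -0.0549 after median-of-ratios scaling, -0.0296 with the limit at 4.3, -0.0164 with the range factor and -0.0294 without near-identical lines. PRR5 under extended light was reversed to -0.0400 with the limit at 4.3, -0.0982 with the range factor, -0.0269 without near-identical lines and -0.0304 with the local marker covariate. Neither gene was called in any of these. Depth is unknown, and differences of genes listed at 0 rest on the pseudocount.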
